A study of Mus musculus with 10 samples.

Results

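Bc1, Chpf, Itih5, Asrgl1, Ano10, Crlf2, Csf2rb, Ucp2 and Car14 were among the strongest and tightest increases in livers that lost the histone variant H3.3, and they come from unrelated families. They were chosen by their measured values, that is by the height and the narrow spread of their expression in the 4 KO livers against the 6 controls, so the values of that comparison are given below as a description and without a test. They are 9 of 55421 gene identifiers in the deposited table, and all 9 were among the 22449 genes with enough counts to be tested. The rule gave no threshold. By the lowest values found among the 9, a log2 fold change of 1.99 and a lowest KO value 2.57 times the highest control value, 254 genes were at least as high on both, of which 67 had a mean of at least 1 CPM in controls.

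Poly(A) RNA was measured in whole livers of 10 male C57BL/6 mice, which asks how hepatocytes change when H3.3, which is encoded by H3f3a and H3f3b, is no longer made. The KO group was 4 H3f3a fl/fl, H3f3b fl/fl mice given AAV8 Tbg-Cre, a virus that expresses Cre recombinase from the hepatocyte promoter Tbg. The WT Cre controls were 3 wild-type mice given the same virus, and the MCS controls were 3 mice with the floxed alleles given AAV8 Tbg-MCS, a vector without Cre. Injection was at 6 months of age, livers were taken after 3 weeks, and every group carried an AAV8 vector. The genotype label of the floxed animals names HIRA, whereas titles and design text name H3f3a and H3f3b, and the groups follow the titles. By design only hepatocytes were targeted, and the other cells of the liver kept both genes.

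H3.3 is the form of histone H3 that is put into chromatin outside of DNA replication, which is the main supply of new H3 in cells that do not divide. It is found at active genes and enhancers as well as at silent repeats, and hepatocytes of adult liver rarely divide. The 9 genes have separate roles. Bc1 is a short noncoding RNA, made by RNA polymerase III from a gene that arose from a copied alanine tRNA and best known from neurons, where it holds back translation. Chpf works with the enzymes that lengthen chondroitin sulfate chains, and Itih5 is a secreted protein of a family that binds hyaluronan. Asrgl1 is an enzyme of asparagine metabolism and Ano10 is a membrane protein of the anoctamin family. Crlf2 and Csf2rb are chains of cytokine receptors known mostly from leukocytes, Ucp2 is a carrier of the inner mitochondrial membrane, and Car14 is a carbonic anhydrase with its active site outside the cell.

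The Bc1 transcript is shown because its composition bears on how a library of poly(A) RNA and a length-scaled unit measure it. It is given as annotated by GENCODE M21 on mm10, at chr7:144914470-144914637 on the plus strand. Capitals mark the A-rich stretch, which ran from base 77 to base 136, held 49 A in 60 bases, and opened with 23 A in a row.
Bc1: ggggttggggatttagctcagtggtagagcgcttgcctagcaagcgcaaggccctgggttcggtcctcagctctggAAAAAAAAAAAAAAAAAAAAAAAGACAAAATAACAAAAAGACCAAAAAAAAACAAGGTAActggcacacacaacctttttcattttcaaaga
The 76 bases before that stretch were 61.8% G or C. Of the 138 different words of 31 bases in Bc1, some also occurred in transcripts of 9 other genes, the most in Lrrc17 with 52 words. Reads of Bc1 could therefore match elsewhere, and how the counting treated reads with several matches was not stated. The same limit holds for Ucp2, Itih5, Asrgl1, Ano10 and Csf2rb, which shared words with 1514, 1441, 532, 507 and 388 other genes. The most words shared with any single gene were 9, 10, 46, 237 and 1369, in that order. Chpf, Crlf2 and Car14 shared no such word.

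Bases before the start of 4 genes are shown next, to set those with most GC boxes (Crlf2 and Ano10) beside Bc1 and Car14, which held none. Asrgl1 also held none and is not shown. They are from the RefSeq promoter table (GRCm38.p6, the assembly also called mm10), which held 8 of the 9 genes and no entry for Csf2rb. Capitals mark GC boxes, that is GGGCGG on either strand. The stretch before Bc1 is chr7:144914220-144914469 on the plus strand, and the others are on the minus strand, before Car14 at chr3:95904692-95904935, Crlf2 at chr5:109558994-109559243 and Ano10 at chr9:122294424-122294673.
Bc1: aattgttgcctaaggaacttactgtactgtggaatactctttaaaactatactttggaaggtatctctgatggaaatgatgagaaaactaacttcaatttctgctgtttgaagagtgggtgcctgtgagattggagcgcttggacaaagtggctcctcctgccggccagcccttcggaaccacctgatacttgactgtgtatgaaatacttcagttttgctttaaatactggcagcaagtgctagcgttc
Car14: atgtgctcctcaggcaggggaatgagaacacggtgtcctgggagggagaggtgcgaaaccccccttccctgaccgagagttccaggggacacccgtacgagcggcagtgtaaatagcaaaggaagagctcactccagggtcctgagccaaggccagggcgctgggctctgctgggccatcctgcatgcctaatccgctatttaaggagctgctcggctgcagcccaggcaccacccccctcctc
Crlf2: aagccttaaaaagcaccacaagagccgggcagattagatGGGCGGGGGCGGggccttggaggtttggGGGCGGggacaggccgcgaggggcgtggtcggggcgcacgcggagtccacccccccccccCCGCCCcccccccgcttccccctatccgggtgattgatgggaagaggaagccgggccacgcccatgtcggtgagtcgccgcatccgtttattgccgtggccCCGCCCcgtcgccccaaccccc
Ano10: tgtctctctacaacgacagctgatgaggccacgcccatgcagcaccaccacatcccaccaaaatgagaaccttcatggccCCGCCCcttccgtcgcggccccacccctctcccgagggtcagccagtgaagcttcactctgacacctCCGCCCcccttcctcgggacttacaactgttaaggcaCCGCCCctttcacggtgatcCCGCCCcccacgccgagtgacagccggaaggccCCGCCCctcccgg
In the full windows of 300 bases (250 before and 50 after the start), Crlf2 held 6 GC boxes, Ano10 5, Itih5 3, and Chpf and Ucp2 2 each. Thus 5 of 8 windows (62.5%) held at least 1, compared with 35.7% of all 32851 promoters of the table. The median G and C content was 63.0% against 52.67% over all promoters, and Bc1 was lowest at 45.67%. The ratio of observed to expected CpG was over 0.6 in 5 of the 8, against 35.8% of all. Among the windows without a GC box it was 0.918 in Asrgl1, the highest of the 8, 0.466 in Car14 and 0.458 in Bc1. GAGGAAG, the core that PU.1 binds, was in 3 of 8 windows and in 13.6% of all, and the ETS core CCGGAAG was in 2 of 8 and in 8.86% of all. A CCAAT box (CCAAT) was in 1 of 8 and 37.4% of all. No window held the TATA box TATAAA (13.6% of all), the AP-1 site TGANTCA (7.81%), the E-box CACGTG (7.15%) or the STAT site TTCNNNGAA (8.3%), nor the searched HNF4A core or B box of RNA polymerase III (0.122% of all for the latter). A B box lies inside the transcribed gene and can fall outside these windows, which end 50 bases after the start. In Bc1, GGTTCG, the first letters of the pattern searched, begins at base 57. The letters that follow it in Bc1 differ from the pattern, so a longer window would not have given a match there either. Both strands were searched, and the GAGGAAG and CCGGAAG cores share the letters GGAAG. These are matches of letters in a fixed window.

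Library totals were 14998426 counts in KO 1 and 20862860 to 26096141 in the other 9 livers. Both targeted genes were lower in every KO liver. H3f3a was 62.1 ± 1.58 CPM (counts scaled to TMM-adjusted library size, mean ± SD) in controls (n = 6) and 17.4 ± 1.66 in KO (n = 4), and H3f3b was 160.0 ± 24.0 and 50.5 ± 7.40. Summed CPM of 14 hepatocyte markers was 131970 to 177110 in controls and 101290 to 120690 in KO. By the test given below, 3 of the 14 were lower and 1 was higher in KO. Their median log2 fold change was -0.71. Marker lists of Kupffer cells, of monocytes and macrophages, of T and NK cells and of stellate cells were 2.91, 3.14, 3.99 and 2.42 times the control mean, each with an exact two-sided permutation p = 0.00476 (adjusted p = 0.00748 over 11 lists), the smallest the 210 splits allow. Endothelial markers were 1.28 and cholangiocyte markers 1.21 times the control mean (adjusted exact p = 0.0524 and 0.0681). In a whole liver, fewer cells of a type and less RNA per cell cannot be told apart. Over all genes, 2899 (12.9%) were higher and 1300 (5.79%) lower in KO, where passing the test means an adjusted p below 0.05 with a log2 fold change beyond 1 in size. With library size as the only scaling, the median over all genes went from -0.00299 to 0.17 on the log2 scale, and the split to 3438 higher and 898 lower.

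All 9 genes were higher in KO than in both kinds of control. Each had all 4 KO livers above all 6 controls, as did 12.5% of all genes tested, and each passed the call that 12.9% of all genes passed upward; both follow from how they were chosen. Their median log2 fold change was 2.49, beside -0.00299 for all genes. Together they summed to 127 to 134 CPM in controls and to 779 to 894 CPM in KO. They lie on 8 chromosomes, 4 on the plus and 5 on the minus strand.

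**Figure D1:**
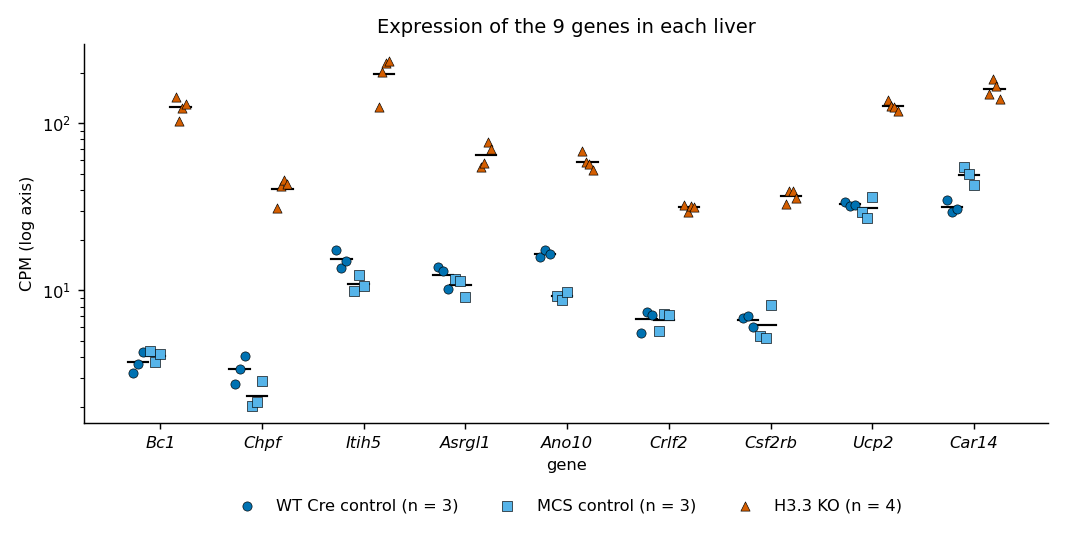
CPM on a log axis in each liver for the 9 genes, with WT Cre controls as circles (n = 3), MCS controls as squares (n = 3), KO as triangles (n = 4) and the mean of each group as a line. For every gene the lowest KO liver lies above the highest control, by 23.6 times for Bc1 and by 2.57 times for Car14.

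Bc1 (ENSMUSG00000115783.1) is annotated as a long intergenic noncoding RNA of 168 bases with a single exon. It was 3.21, 3.64 and 4.29 CPM in WT Cre controls 1 to 3 and 4.36, 3.71 and 4.14 CPM in MCS controls 1 to 3. In KO 1 to 4 it was 144, 103, 123 and 130.3 CPM. All controls were low and close to each other, and the lowest KO liver was 23.6 times the highest control. The log2 fold change was 5.00 ± 0.12 (SE), the largest of the 9 and rank 210 of 22449. The reads behind it were 74 to 108 counts per control and 2215 to 3406 per KO liver. On the FPKM scale, which divides by length, Bc1 was 105 ± 12.8 in controls and 4620 ± 757 in KO. These FPKM depend on how the length of a very short RNA is corrected, so the level of Bc1 was not compared with that of the other genes.

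Chpf, chondroitin polymerizing factor, works with the chondroitin synthases that lengthen chondroitin sulfate chains. It lies at chr1:75474569-75479307 on the minus strand. WT Cre controls had 2.75, 3.38 and 4.05 CPM and MCS controls 2.04, 2.14 and 2.85 CPM. The KO livers had 31.1, 42.4, 45.6 and 43.1 CPM. KO 1 was lowest of the KO livers, yet 7.69 times the highest control, and the log2 fold change was 3.82 ± 0.18.

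Itih5 encodes a heavy chain of the inter-alpha-trypsin inhibitor family, secreted proteins that bind hyaluronan (chr2:10153571-10256529, plus strand). Its CPM was 17.5, 13.5 and 15.005 in WT Cre and 9.85, 12.4 and 10.6 in MCS controls. KO 1 had 126 CPM, and KO 2 to 4 had 201, 229 and 235 CPM. Itih5 spread most within KO, with the highest liver 1.87 times the lowest, and the groups did not overlap. The log2 fold change was 3.91 ± 0.20.

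Asrgl1 encodes an enzyme that hydrolyses asparagine and isoaspartyl peptides (chr19:9109868-9135636, minus strand). WT Cre controls had 13.7, 13.1 and 10.2 CPM and MCS controls 11.8, 11.3 and 9.17 CPM. The KO livers had 54.5, 57.8, 77.5 and 70.1 CPM. The lowest KO value was 3.98 times the highest control, and the log2 fold change was 2.49 ± 0.13. The antisense gene Gm9750 overlaps Asrgl1, and the strand setting of the counting was not stated.

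Ano10 belongs to the anoctamins, membrane proteins that include calcium-activated chloride channels and lipid scramblases (chr9:122175874-122294423, minus strand). WT Cre controls had 15.8, 17.3 and 16.5 CPM, whereas MCS controls had 9.28, 8.75 and 9.78 CPM. In KO 1 to 4 it was 67.9, 58.4, 57.2 and 52.7 CPM. The 2 kinds of control did not overlap each other, and both lay below every KO liver. The log2 fold change was 2.19 ± 0.20 against all 6 controls.

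Crlf2 encodes the receptor chain for thymic stromal lymphopoietin, which pairs with the interleukin-7 receptor alpha chain (chr5:109554709-109558993, minus strand). WT Cre controls had 5.59, 7.42 and 7.15 CPM and MCS controls 5.74, 7.19 and 7.15 CPM. KO 1 to 4 had 32.4, 29.5, 31.9 and 31.7 CPM. The KO livers were nearly level, with a coefficient of variation (CV, SD over mean) of 4.07%, and 3.2% of 13210 genes with a mean of at least 1 CPM had a lower one. A narrow spread was part of how the gene was chosen, so this place among all genes is a description only. The log2 fold change was 2.23 ± 0.11.

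Csf2rb encodes the beta chain shared by the receptors for GM-CSF, interleukin-3 and interleukin-5 (chr15:78325752-78353847, plus strand). It was 6.84, 6.98 and 6.03 CPM in WT Cre and 5.33, 5.18 and 8.16 CPM in MCS controls. KO 1 to 4 had 33.1, 39.4, 39.1 and 35.9 CPM. No KO liver was below 4.06 times the highest control, and the log2 fold change was 2.53 ± 0.13. Its paralog Csf2rb2 shares 28.6% of its words of 31 bases with Csf2rb, so reads could be split between them.

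Ucp2, the mitochondrial carrier, lies at chr7:100493337-100502020 on the plus strand. WT Cre controls had 34.0, 31.9 and 32.6 CPM and MCS controls 29.3, 27.2 and 36.3 CPM. KO 1 to 4 had 139, 127, 125 and 118 CPM. The groups did not overlap, and the KO livers varied by a CV of 6.70%. The log2 fold change was 1.99 ± 0.10. Dnajb13 overlaps Ucp2 on the other strand, at 1.22 ± 0.576 CPM in KO.

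Car14 lies at chr3:95897768-95904691 on the minus strand. WT Cre controls had 34.8, 29.5 and 30.8 CPM, and MCS controls had more, 54.5, 49.8 and 42.5 CPM. The KO livers had 151, 185, 166 and 140.1 CPM. As with Ano10 the 2 kinds of control did not overlap each other, and here MCS controls were the higher ones. The log2 fold change was 1.99 ± 0.17. Aph1a overlaps Car14 on the other strand and was at 36.5 ± 4.75 CPM in controls and 33.2 ± 2.31 CPM in KO.

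The KO livers were not ordered alike over the 9 genes. KO 1 was the highest KO liver for 4 genes (Bc1, Ano10, Crlf2 and Ucp2) and the lowest for 4 others (Chpf, Itih5, Asrgl1 and Csf2rb). KO 2 was highest for Csf2rb and Car14, KO 3 for Chpf and Asrgl1, and KO 4 for Itih5. Over 13210 genes with a mean of at least 1 CPM the median CV was 17.1% in KO, and Itih5, at 25.4%, was the only 1 of the 9 above it. A narrow spread was part of how the 9 were chosen, so nothing is read from this.

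Per transcript length, leaving out Bc1, Car14 and Ucp2 were the most abundant in controls, at 21.01 ± 4.46 and 16.5 ± 2.92 FPKM, with ranges that overlapped. Ano10, Crlf2 and Asrgl1 followed at 4.35 ± 1.92, 4.01 ± 0.518 and 2.52 ± 0.518 FPKM, each overlapping the next. Itih5, Csf2rb and Chpf were lowest, at 1.26 ± 0.339, 1.08 ± 0.192 and 0.805 ± 0.256 FPKM, and also overlapped. In KO the order was Car14 (98.8 ± 12.1 FPKM), Ucp2 (82.5 ± 2.78), Crlf2 (26.6 ± 1.81), Ano10 (22.0 ± 3.65), Itih5 (21.5 ± 5.89), Asrgl1 (15.1 ± 3.93), Chpf (13.0 ± 2.38) and Csf2rb (6.99 ± 0.729). Crlf2 to Chpf each overlapped the next in that order, while Car14, Ucp2 and Csf2rb stood apart. Csf2rb lay below every other gene in KO, whereas in controls its range overlapped those of Itih5 and Chpf.

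The controls differ in genotype and virus, so they were also compared with each other and each with KO. Against WT Cre controls the log2 fold change was 5.07 ± 0.17 for Bc1, 3.58 ± 0.19 for Chpf, 3.69 ± 0.22 for Itih5 and 2.39 ± 0.16 for Asrgl1. Against MCS controls it was 4.94 ± 0.16, 4.12 ± 0.20, 4.18 ± 0.23 and 2.59 ± 0.17. Ano10 was 1.83 ± 0.11 against WT Cre and 2.67 ± 0.12 against MCS controls, and Car14 went the other way, with 2.34 ± 0.14 and 1.71 ± 0.13. Crlf2, Csf2rb and Ucp2 moved little with the choice of control (2.22 and 2.23, 2.48 and 2.58, 1.95 and 2.04). Both comparisons share the KO livers.

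Between the kinds of control, the log2 level of Ano10 was 0.84 ± 0.12 higher in WT Cre (adjusted p = 0.00473, edgeR), and it was the only 1 of the 9 with an adjusted p under 0.05, as were 0.927% of all genes. Car14 differed by -0.63 ± 0.14 (adjusted p = 0.0575), Chpf by 0.55 ± 0.20 (adjusted p = 0.334) and Itih5 by 0.49 ± 0.21 (adjusted p = 0.434). The other 5 genes differed by -0.13 to 0.20. Close control values were part of how the genes were chosen, and these values rest on the match of control columns to groups by library number. On FPKM the adjusted p of Ano10 was 0.0696 or 0.0533, depending on the pseudocount.

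**Figure D2:**
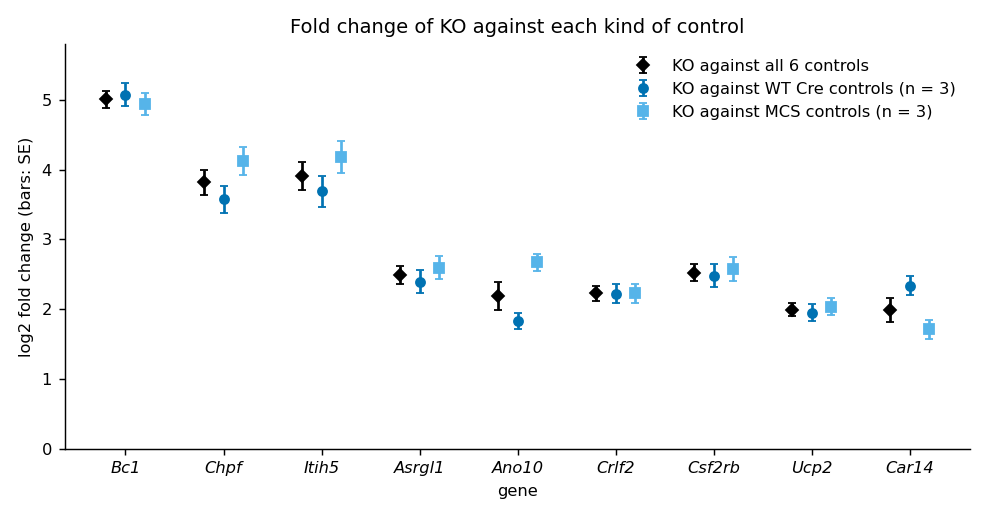
Log2 fold change of KO against all 6 controls (diamonds), the 3 WT Cre controls (circles) and the 3 MCS controls (squares), with bars of 1 SE. The circles and squares lie farthest apart for Ano10 (1.83 and 2.67) and Car14 (2.34 and 1.71).

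Other genes of the cytokine receptor system were counted because Crlf2 and Csf2rb are known mostly from leukocytes. Of 11 listed ligands and receptor chains 7 were tested, of which 6 (85.7%) rose and none fell, beside 12.9% of all genes upward. The other tested gene, Il7, was 0.30 ± 0.38 (edgeR adjusted p = 0.588). Csf2ra, the alpha chain of the GM-CSF receptor, rose from 5.33 ± 0.837 to 56.3 ± 23.8 CPM (log2 fold change 3.41 ± 0.29, edgeR adjusted p = 1.86e-05). Csf2rb2 rose by 2.71 ± 0.30, Il3ra, the alpha chain of the interleukin-3 receptor, by 2.27 ± 0.15 and Il2rg, the common gamma chain, by 1.86 ± 0.26. Il7r, the partner of Crlf2, and Tslp, its ligand, rose by 1.12 ± 0.39 (adjusted p = 0.0378) and 1.00 ± 0.37 (adjusted p = 0.0488) at mean KO levels of 1.02 and 0.300 CPM. Il7r in KO 1 was 0.391 CPM and lay within the control range of 0.292 to 0.694 CPM. Tslp rested on 5 to 9 counts in each KO liver, and its log2 fold change was 0.57 against MCS controls and 1.57 against WT Cre controls. Of 15 JAK and STAT pathway genes, 2 (13.3%) passed the call upward, beside 12.9% of all genes. These were Stat4 (1.47 ± 0.31) and Socs1 (1.38 ± 0.44), whose KO 1 value of 0.521 CPM lay within the control range. Jak1 (0.57 ± 0.12, adjusted p = 0.00331) and Jak2 (0.35 ± 0.11, adjusted p = 0.0277) were higher by less than the fold required.

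These genes did not share the order of the KO livers. KO 1 had the lowest summed markers of the KO group for Kupffer cells, monocytes and macrophages, dendritic cells, T and NK cells and neutrophils. Csf2ra was 21.8 CPM in KO 1 and 61.1, 75.7 and 66.5 CPM in KO 2 to 4, and Csf2rb2 was 3.45 CPM and then 8.66, 7.71 and 12.5 CPM. Il3ra, by contrast, was 16.2 CPM in KO 1 and 11.5, 12.7 and 12.0 CPM in the others. The summed monocyte and macrophage markers were 1.83 times the control mean in KO 1 and 3.16, 3.43 and 4.15 times in KO 2 to 4, and all 12 of the list rose. T and NK cell markers were 1.32, 5.97, 3.43 and 5.26 times the control mean (9 of 10 rose), and neutrophil markers 1.02, 4.63, 3.39 and 2.52 times (4 of 6 rose). In the same livers Crlf2 was 4.84, 4.41, 4.76 and 4.72 times, Csf2rb 5.16, 6.14, 6.10 and 5.60 times, and Ucp2 4.35, 3.97, 3.91 and 3.71 times its control mean. Closeness of the KO values was part of how these 3 genes were chosen, so nothing is read from their narrow range beside the lists. Without KO 1 the log2 fold changes were 2.21 ± 0.11 for Crlf2, 2.57 ± 0.13 for Csf2rb and 1.95 ± 0.09 for Ucp2. Kupffer cell markers summed to 224 to 437 CPM in controls and 511 to 1118 CPM in KO (9 of 10 rose), monocyte and macrophage markers to 101 to 173 and 224 to 508 CPM, and dendritic cell markers to 17.0 to 21.2 and 24.2 to 57.8 CPM (5 of 10 rose). B and plasma cell markers summed to 212 to 309 and 427 to 658 CPM (3 of 8 rose), and of the mast cell and basophil list only 1 of 6 genes was tested, with Mcpt8 and Fcer1a at 0 counts in every liver. The part of these cells in the values of Crlf2, Csf2rb and Ucp2 was not tested.

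**Figure D3:**
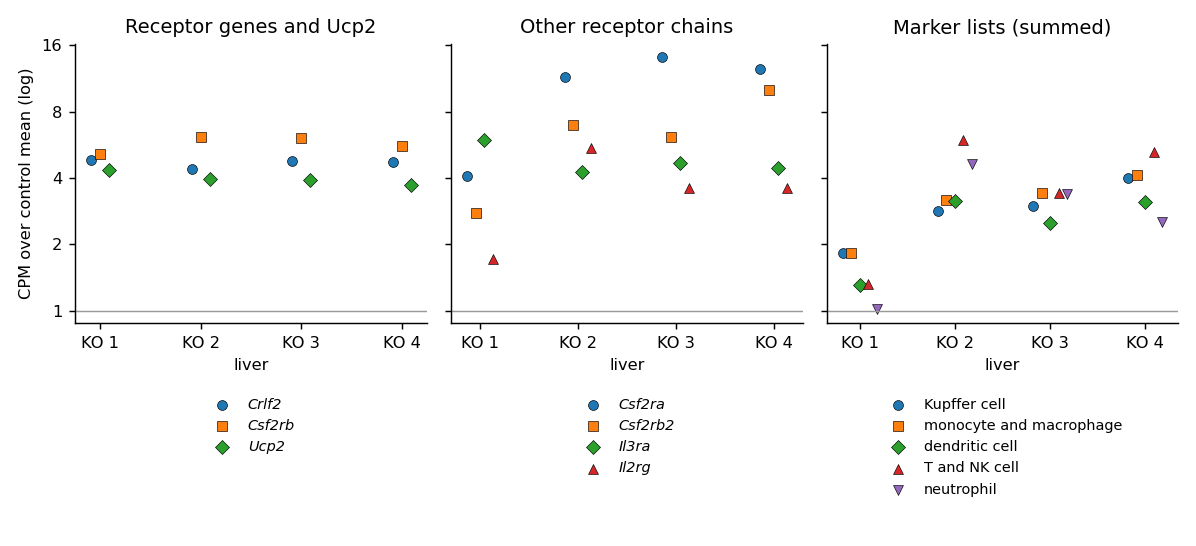
CPM in each KO liver as a multiple of the control mean, on a log axis, for Crlf2, Csf2rb and Ucp2 (left), 4 further receptor chains (middle) and 5 summed marker lists (right). In KO 1 the lists lie between 1.02 and 1.83 times and Crlf2, Csf2rb and Ucp2 between 4.35 and 5.16 times, with the narrow range of the latter a part of how they were chosen.

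Families and pathways of the other genes were counted in the same way. In all, 117 of 134 listed genes were tested, of which 24 (20.5%) rose and 7 (5.98%) fell, beside 12.9% and 5.79% of all genes. On log2(FPKM + 1) these counts were 8 and 3. Rising and falling here needs an adjusted p under 0.05 and a log2 fold change beyond 1 in size, and 55 of the 117 met the first of these. Around Bc1, no gene of 8 that encode BC1-binding proteins passed both. They ran from Eif4b (-0.27 ± 0.10) to Pabpc1, the poly(A)-binding protein (0.29 ± 0.12). Of 21 genes of the RNA polymerase III machinery 6 had an adjusted p under 0.05, and of these the subunit gene Polr3gl also passed the fold required. It fell from 10.1 ± 1.07 to 2.99 ± 0.258 CPM (log2 fold change -1.75 ± 0.13, adjusted p = 1.69e-06), with 2.78 to 3.37 CPM in the KO livers and 8.16 to 11.1 CPM in controls. Its paralog Polr3g (-0.81 ± 0.20), Gtf3c3 (-0.58 ± 0.12), Polr3k (-0.50 ± 0.10) and Polr3b (-0.49 ± 0.12) were lower and Polr3d (0.43 ± 0.15) was higher by less than that.

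Among 21 enzymes that build or sulfate chondroitin sulfate chains, 5 (23.8%) rose and none fell, beside 12.9% and 5.79% of all genes. Chst11, a 4-O-sulfotransferase, rose by 2.48 ± 0.28, Ust, a 2-O-sulfotransferase, by 1.79 ± 0.32, Xylt1, which starts the chain, by 1.69 ± 0.48 and Chst12 by 1.22 ± 0.24, these 4 at mean KO levels under 3 CPM. Chsy1, a chondroitin synthase, rose by 1.19 ± 0.19 from 3.31 ± 0.448 to 7.52 ± 2.08 CPM (adjusted p = 3.37e-04). Xylt1 in KO 1 (0.195 CPM) lay below the highest control (0.347 CPM). Chpf2, the closest relative of Chpf, was 14.9 ± 3.22 CPM in controls and 15.8 ± 2.16 CPM in KO (0.08 ± 0.17, adjusted p = 0.751). Of 6 core proteins that carry such chains, Vcan (2.84 ± 0.40) and Srgn (1.38 ± 0.25) rose (33.3%) and Cspg5 fell by 2.33 ± 0.42 (16.7%). In KO 1, Srgn (11.9 CPM) lay below the highest control (13.0 CPM). Srgn is known from leukocytes and Vcan from matrix and myeloid cells. Stellate cell markers summed to 221 to 282 CPM in controls and 505 to 811 CPM in KO (5 of 10 rose). Their part in the values of the chondroitin sulfate genes was not tested. Dcn is on that list and on the core protein list.

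Of 10 genes of inter-alpha-inhibitor and hyaluronan biology, Cd44, the hyaluronan receptor (1.98 ± 0.28), and Tnfaip6, which moves heavy chains onto hyaluronan (1.73 ± 0.57), rose. Tnfaip6 rested on 2, 4, 9 and 25 counts in KO 1 to 4. Its values in KO 1 (0.130 CPM) and KO 2 (0.158 CPM) lay within the control range of 0.0417 to 0.217 CPM. The other heavy chain genes, which hepatocytes normally express, did not reach the fold change required. Itih1 was -0.58 ± 0.10 (adjusted p = 8.34e-04), Itih2 -0.32 ± 0.13, Itih3 -0.85 ± 0.24 (adjusted p = 0.0142) and Itih4 -0.09 ± 0.21. Of 8 genes of asparagine metabolism, Asns, asparagine synthetase, rose by 2.14 ± 0.54 and Nit2, an omega-amidase, fell by 1.54 ± 0.24. Each is 12.5% of that list, beside 12.9% of all genes upward and 5.79% downward. The upward share was thus near that of all genes. Asns was 0.195, 1.70, 2.78 and 3.98 CPM in KO 1 to 4 and 0.292 to 0.838 CPM in controls, so KO 1 lay below every control. Of 7 anoctamins, Ano7 (3.303 ± 0.63, mean KO level 0.396 CPM) and Ano6, a lipid scramblase (1.18 ± 0.31), rose, or 28.6% of the list. Ano6 in KO 1 (7.04 CPM) lay within the control range of 5.17 to 8.57 CPM.

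Carbonic anhydrases moved in both directions, with 4 of 11 higher and 4 lower (36.4% each), beside 12.9% and 5.79% of all genes. Car3, which is abundant in male liver, fell from 3724 ± 973 to 586 ± 353 CPM (-2.67 ± 0.43, adjusted p = 8.79e-04). KO 1 to 4 had 1021, 689, 439 and 195 CPM of Car3 and the controls 2346 to 4801 CPM. Car13 (2.06 ± 0.45), Car9 (1.76 ± 0.39) and Car11 (1.73 ± 0.25) rose, at mean KO levels of 0.995, 0.507 and 3.88 CPM. The mitochondrial forms Car5a and Car5b, chosen for naming after their values were seen, fell by 1.63 ± 0.33 and 1.44 ± 0.30. For Ucp2, Ucp1 and Ucp3 had too few counts, and Slc25a14 (-0.19 ± 0.18), Slc25a27 (-0.10 ± 0.26) and Slc25a30 (0.37 ± 0.55) did not pass the test.

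**Figure D4:**
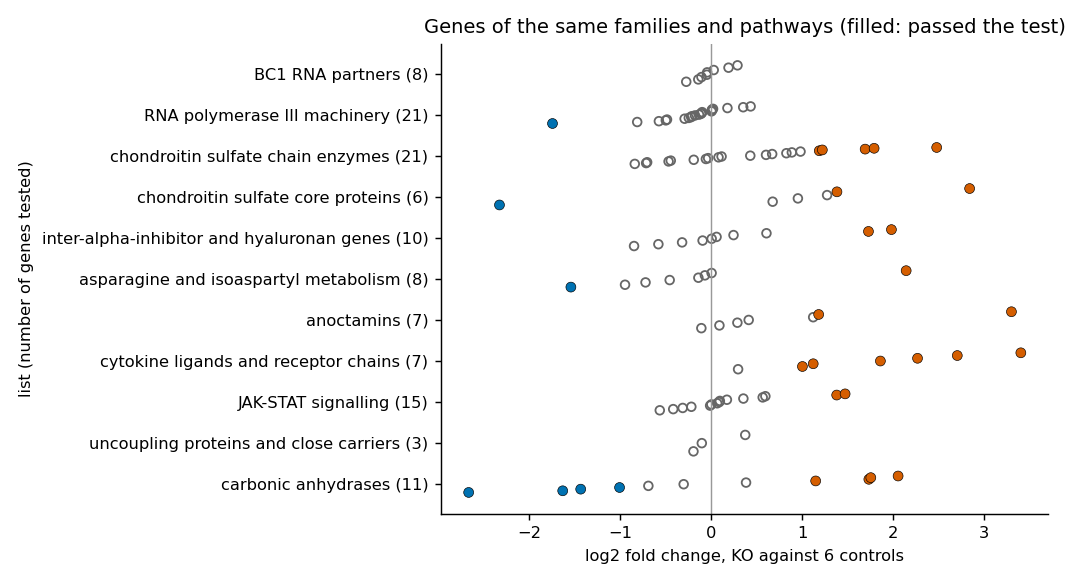
Log2 fold change, KO against the 6 controls, of 117 genes in 11 lists, with filled points for genes that passed the test (orange higher, blue lower). The cytokine list has 6 of 7 genes filled to the right, and the carbonic anhydrases have 4 on each side.

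Genes beside the 9 were compared to see whether the increase stopped at the gene. Within 100 kb of a gene body 48 other genes were tested, and 16 (33.3%) rose and none fell, beside 12.9% of all genes upward. Leaving out 3 genes that overlap one of the 9 gave 14 of 45 (31.1%). With a mean of at least 1 CPM over the means of both groups it was 10 of 31 (32.3%), beside 11.9% of all such genes. Within 50 kb it was 12 of 32 (37.5%) and within 250 kb 26 of 100 rose and 3 fell. On log2(FPKM + 1) 8 of the neighbours passed.

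Several neighbours did not pass the call. LTO1 begins 463 bases downstream of Bc1 and was 13.6 ± 2.08 CPM in controls and 10.9 ± 1.13 CPM in KO (-0.32 ± 0.13, adjusted p = 0.0685). Beyond it Ccnd1, at 15.3 kb, rose by 1.68 ± 0.45, though its KO 1 value of 19.6 CPM lay within the control range of 6.19 to 22.9 CPM. Itih5 had 4 tested neighbours, of which none passed, with Itih2 (-0.32 ± 0.13) at 22.2 kb. Aph1a, which overlaps Car14, was -0.13 ± 0.11. On the downstream sides of Ano10 and Csf2rb, Snrk at 6.17 kb was 0.23 ± 0.16 and Tst at 45.7 kb was -0.23 ± 0.17. The nearest genes on the far sides of Chpf (Gmppa, -0.42 ± 0.11), Car14 (Anp32e, 0.32 ± 0.12), Asrgl1 (Gm6252, -0.61 ± 0.25), Itih5 (Gm13261, -1.42 ± 1.08) and Ucp2 (Gm10603, -0.07 ± 0.39, and Coa4, -0.22 ± 0.17) did not pass either.

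For others the genes next to them rose too. Gm8493, a pseudogene on the strand of Crlf2 and 553 bases downstream of it, was 0.0417 to 0.224 CPM in controls and 5.15, 5.61, 6.78 and 4.40 CPM in KO 1 to 4 (5.48 ± 0.28, adjusted p = 7.28e-08). All KO livers lay above all controls, and none of its 459 words of 31 bases occurred in Crlf2. Tmem198 lies 225 bases upstream of Chpf on the other strand, so that the genes point away from each other, and it rose from 0.116 ± 0.05 to 0.635 ± 0.0364 CPM (2.40 ± 0.33). Obsl1, whose end lies 3 bases upstream of Chpf on the same strand, rose by 1.25 ± 0.23. Gm26797, 1.45 kb upstream of Ano10, rose by 1.82 ± 0.56 at a KO mean of 0.413 CPM, and Dnajb13, overlapping Ucp2, by 1.61 ± 0.32. In KO 4, however, Gm26797 (0.0765 CPM) lay within the control range of 0.0407 to 0.223 CPM. In KO 1, Dnajb13 (0.391 CPM) lay within its control range of 0.335 to 0.459 CPM. Beside Asrgl1, Ahnak at 32.95 kb rose by 1.30 ± 0.22, and BC028528 at 5.76 kb from Car14 by 1.79 ± 0.22.

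Csf2rb had the most called neighbours, 4 of 7. Csf2rb2, 20.03 kb upstream, is its paralog, and reads could be split between them. Ncf4, a subunit of the phagocyte NADPH oxidase, rose by 1.72 ± 0.25. Kctd17, 74.7 kb downstream and singled out after its values were seen, was 3.39 to 5.94 CPM in controls and 20.9, 25.1, 26.9 and 25.9 CPM in KO 1 to 4 (2.44 ± 0.15, adjusted p = 3.86e-07). Its KO livers lay close together, while Csf2rb2 was between 3.45 CPM in KO 1 and 12.5 CPM in KO 4.

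**Figure D5:**
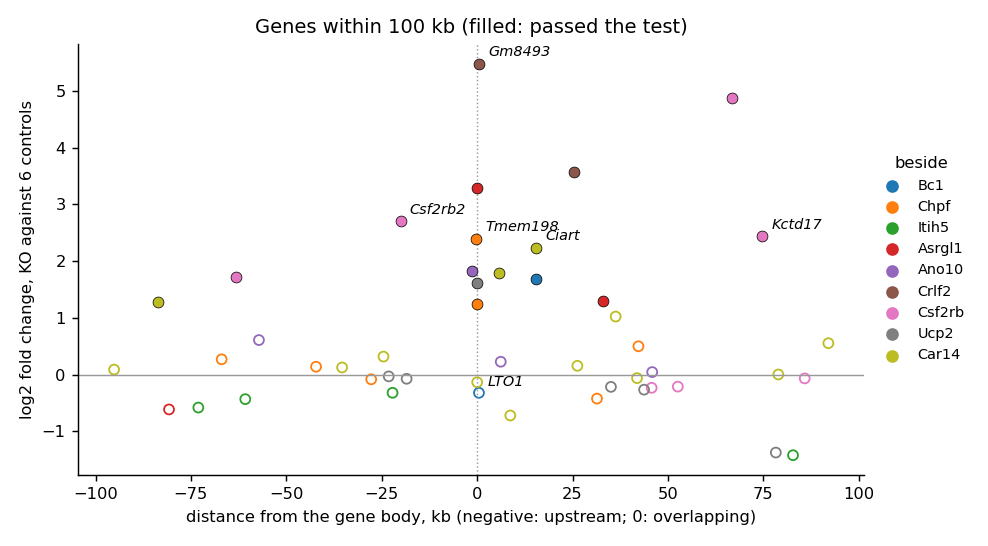
Log2 fold change of 48 genes within 100 kb of the 9 genes against distance in kb from the gene body (negative upstream, 0 overlapping), coloured by the gene they lie beside and filled where the gene passed the test. The 16 filled points all lie above 0, from 1.25 to 5.48, and Itih5 has none.

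The genes whose log2 CPM over the 10 livers was most like that of Bc1, by Pearson r, were Calm3 (0.9961), Speer6-ps1 (0.9959), Gm15287 (0.9939), Tmem176b (0.9937) and Cyp2d41-ps (0.9914). The 10 points form 2 groups, KO and controls, so r mostly measures how tight and how separate the groups are. Calm3, a calmodulin gene, was 49.6 to 54.2 CPM in controls and 110.2, 96.1, 105 and 101 CPM in KO 1 to 4, and Tmem176b was 169 to 189 and 360 to 400 CPM. Cyp2d41-ps, a cytochrome P450 pseudogene, was 0.982 to 1.78 CPM in controls and 88.5, 145, 134 and 114 CPM in KO. Speer6-ps1 had 0 counts in 5 controls and 2.77 to 3.90 CPM in KO, and Gm15287 had at most 0.0559 CPM in controls and 14.8 to 23.4 CPM in KO. The other 8 of the 9 genes had r with Bc1 from 0.9503 (Ano10) to 0.9931 (Crlf2).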

How the data were processed

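Poly(A) RNA of 10 mouse livers was sequenced with a directional kit. The authors' pipeline was trimming, alignment to mm10 by STAR and counting per gene. Their methods name HOMER for counting, whereas the submitters' processing notes list STAR, HTSeq and Cufflinks. The deposited counts are whole numbers per gene without normalization, and the deposited FPKM (per kilobase and library depth) came from a tool that is not given in the sources used here. Blank FPKM cells were read as 0.

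Control columns carry a number only. They were matched to WT Cre (1 to 3) and MCS (4 to 6) controls by library number, on which every value for one kind of control rests. KO against the pooled 6 controls is free of that match. Nothing in the labels states that samples came from separate litters or days, and p-values measure the spread between these livers.

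Genes with at least 10 counts in all were tested in edgeR 4.0.16 under R 4.3.3 by quasi-likelihood (F test, TMM, robust, two-sided, Benjamini-Hochberg over 22449 genes), KO against 6 controls or in a fit of 3 groups. A gene passed at adjusted p below 0.05 with a log2 fold change beyond 1 in size. SE is the log2 fold change over the square root of F. Marker sums were compared by exact permutation of the livers. DESeq2 1.42.0, limma 3.58.1 (voom, and log2(FPKM + 1) or log2(FPKM + 0.1)), other filters, library size only, a replicate block and leaving out each liver were alternatives. Named were all 9 genes, up to 4 called genes per list, the nearest neighbours and the 5 genes most like Bc1. Chpf2, Chsy1, Polr3b, Polr3d, Polr3g, Polr3k, Gtf3c3, Jak1, Jak2, Itih1 to Itih4, Il7r, Tslp, Car5a, Car5b, Ccnd1, Ncf4 and Kctd17 were added after their values were seen. The 9 genes and all lists were chosen with earlier results of these data known.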

Additional observations from a re-analysis of the deposited data

Results flagged for a closer look

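Ano10 differed between the kinds of control, so that its increase in KO depended on which control was used. The log2 difference of WT Cre minus MCS controls was 0.84 ± 0.12 (edgeR adjusted p = 0.00473), and the log2 fold change of KO was 1.83 ± 0.11 against WT Cre and 2.67 ± 0.12 against MCS controls. All 3 WT Cre livers (15.8 to 17.3 CPM) lay above all 3 MCS livers (8.75 to 9.78 CPM). Over the alternatives the difference ranged from 0.796 to 1.03 with adjusted p between 1.08e-06 and 0.0696. Genotype and virus differ together between these controls and cannot be told apart. No liver was flagged as apart from its group in 18 checks of the 9 genes. A narrow spread was part of how they were chosen. The usual chance rate of about 1 in 20 therefore does not apply, and nothing is read from this.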

How the results depend on the processing

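All 9 genes passed the KO call in each of 18 alternatives. They were chosen on this same comparison, so that outcome was largely fixed by the choice and is no test. Each log2 fold change kept its direction over 20 alternatives. It ran from 4.93 to 5.46 for Bc1, 2.95 to 4.12 for Chpf, 3.28 to 4.18 for Itih5 and 2.17 to 2.67 for Asrgl1. For Ano10 it ran from 1.83 to 2.67, for Crlf2 from 2.18 to 2.70 and for Csf2rb from 1.94 to 2.71. For Ucp2 the range was 1.95 to 2.33 and for Car14 1.71 to 2.34. On log2(FPKM + 1), which shrinks low values, 8 listed relatives rose and 3 fell, 8 neighbours and 30 marker genes rose, instead of 24, 7, 16 and 49; the other alternatives changed these counts by less than 1.5 times, except that 16 relatives rose on log2(FPKM + 0.1) and that 29 neighbours were called within 250 kb. Between the kinds of control none of the 9 genes passed the full call in any alternative. The count with an adjusted p under 0.05, 1 in the report, was 2 (Ano10 and Car14) with filterByExpr, without a filter beyond 1 count, with DESeq2 and with the replicate block, 1 to 2 when 1 liver was left out (2 without KO 1 or KO 4), and 0 with either pseudocount on FPKM. The cause was not tested. The difference of Car14 ranged from -0.717 to -0.435 with adjusted p between 0.0015 and 0.246. Replicate numbers did not pair the livers, since deviations of livers with the same number correlated at -0.0387 to 0.111, and with the replicate block 18 relatives rose, 7 fell and 12 neighbours were called. The overlap and marker alternatives and those for Ano10 and Car14 between controls were chosen after seeing the data. Depth limits genes under about 1 CPM, which rest on few counts, most of all in KO 1.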
